A study of Mus musculus with 9 samples.

Results

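In mouse pre-B cells, 5284 regions outside the ribosomal RNA genes (rDNA) were called as UBTF peaks in both wild type libraries and in none of the 4 premalignant and malignant libraries. They were chosen by position in the deposited peak lists. A peak of wild type replicate 1 on chromosomes 1 to 19 was kept when it overlapped a peak of wild type replicate 2 by at least 1 bp and no peak of the other 4 lists, and kept peaks that overlapped each other were merged. Of 109563 peaks of replicate 1 on these chromosomes, 89264 (81.5%) overlapped a peak of replicate 2. Of those, 5364 (6.01%) overlapped no peak of the other lists, and these peaks made up the 5284 regions, out of 91034 merged regions of replicate 1. The other 66493 regions that both wild type lists shared served as the comparison set.

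The series profiled UBTF by chromatin immunoprecipitation and sequencing (ChIP-seq) in primary bone marrow pre-B cells of C57BL/6 background, sorted for the B cell antigen B220 and against surface IgM and IgD. The labels give 1 gate for all stages, high B220 with low IgM and low IgD, while the study's methods describe the malignant cells as positive for B220 and negative for both immunoglobulins. By the methods, wild type and premalignant mice were female and malignant mice were of both sexes. Wild type mice and premalignant mice were 4 to 6 weeks old. Premalignant and malignant mice were heterozygous for Eµ-Myc, a transgene in which the immunoglobulin heavy chain enhancer drives the MYC oncogene in B cells, and malignant mice were taken once lymphoma had arisen, at 10 to 20 weeks. The 9 samples are 2 UBTF libraries for each of 3 stages and 3 inputs, and the inputs were not analysed here. In the malignant group, stage cannot be told apart from age, nor from any difference in sex or gate. Peak lists hold no expression values, so the labelled cell type could not be checked against its markers.

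UBTF (upstream binding transcription factor) is a protein with several HMG boxes that bends DNA and coats active rDNA repeats, where it keeps them open for RNA polymerase I. It has also been described at promoters read by RNA polymerase II. Its HMG boxes read DNA shape more than a fixed motif. Simple tandem repeats of short units, such as AC repeats (GT on the other strand, alternating purine and pyrimidine) and AG repeats (CT on the other strand, all purine on 1 strand), are common in mouse introns and between genes and can take up non-standard DNA forms.

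Most of the wild type only regions had their summit on such a repeat. The sequences below, which reach 100 bp to either side of the summit of wild type replicate 1 in mm9, show the kinds met among the regions of best rank. Capitals mark a tandem repeat of at least 40 bp, and the last sequence, which stands for regions at gene starts, has none.
Pcdh9 intron, chr14:94165537-94165737, plus strand: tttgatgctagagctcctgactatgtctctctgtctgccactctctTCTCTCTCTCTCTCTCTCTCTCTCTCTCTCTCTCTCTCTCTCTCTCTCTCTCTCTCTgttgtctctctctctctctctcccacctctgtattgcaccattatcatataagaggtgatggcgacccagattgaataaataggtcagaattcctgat
Upstream of Fyb, chr15:6528852-6529052, plus strand: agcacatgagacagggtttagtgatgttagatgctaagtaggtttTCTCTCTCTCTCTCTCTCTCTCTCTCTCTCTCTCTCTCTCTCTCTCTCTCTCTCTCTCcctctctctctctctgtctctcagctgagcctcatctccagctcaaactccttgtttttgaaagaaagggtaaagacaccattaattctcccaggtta
Between genes, chr4:56472932-56473132, plus strand: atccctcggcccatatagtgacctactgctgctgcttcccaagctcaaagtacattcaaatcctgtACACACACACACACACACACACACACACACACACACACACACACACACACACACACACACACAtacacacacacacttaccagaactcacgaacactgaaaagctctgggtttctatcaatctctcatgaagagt
Between genes, chr6:74985817-74986017, plus strand: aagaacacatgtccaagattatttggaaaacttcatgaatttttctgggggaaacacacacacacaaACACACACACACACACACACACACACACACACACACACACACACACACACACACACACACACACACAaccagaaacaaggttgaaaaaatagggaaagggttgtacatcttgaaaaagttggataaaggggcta
Igsf21 intron, chr4:139697924-139698124, plus strand: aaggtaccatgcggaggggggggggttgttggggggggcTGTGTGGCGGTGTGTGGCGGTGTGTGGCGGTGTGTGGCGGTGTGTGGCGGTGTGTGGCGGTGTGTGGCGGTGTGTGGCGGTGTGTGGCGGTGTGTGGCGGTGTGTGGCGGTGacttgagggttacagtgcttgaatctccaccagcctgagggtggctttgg
Upstream of Nde1, chr16:14163141-14163341, plus strand: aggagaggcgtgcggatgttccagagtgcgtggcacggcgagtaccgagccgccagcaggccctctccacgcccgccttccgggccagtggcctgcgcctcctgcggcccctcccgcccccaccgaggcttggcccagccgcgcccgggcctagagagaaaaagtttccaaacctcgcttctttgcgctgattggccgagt

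The first 2 sequences carry AG repeats of 57 and 58 bp, read as TC on the plus strand. The next 2 carry AC repeats of 63 and 67 bp. The Igsf21 sequence carries a 10 bp unit repeated over 112 bp, a unit longer than the 1 to 6 bp used in the counts here, so it was counted as without a repeat. The Nde1 sequence is GC-rich at 69.2% and has 20 CpG sites. The 2 AC regions of best rank and the Nde1 sequence were picked as examples after their values had been seen.

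At the summit, 4173 of 5284 wild type only regions (79%, 95% exact Clopper-Pearson interval 77.9 to 80.1) had a tandem repeat of at least 40 bp with a unit of 1 to 6 bp. Among the other shared regions 61% (60.6 to 61.4) had one, and on a regular grid of 47869 positions across the autosomes 2.25% had one. All intervals given cover counting error only. The sets of regions differed most in AC repeats. These lay under 2084 wild type only summits (39.4%, 38.1 to 40.8) against 16.7% (16.5 to 17.0) of the other shared regions and 0.677% of grid positions. AG repeats lay under 1877 summits (35.5%, 34.2 to 36.8) against 36.9% (36.5 to 37.3) and 0.432%. Repeats with any of 46 other units, led by ACAGAG in 39 regions and ACAG in 22, lay under 212 summits (4.01%) against 7.35%. With a minimum of 20 bp, 92.1% of wild type only and 73.3% of other shared summits lay on a repeat, against 6.58% of the grid. A repeat of a unit of 7 to 60 bp with no shorter unit, as in the Igsf21 region, was found in 32 regions (0.606%). With wild type replicate 1 left out, AC repeats lay under 30.5% and AG repeats under 19.1% of the summits kept by the rule.

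The summit sat in the repeat itself. It was inside the AC repeat in 89.5% and inside the AG repeat in 90.8% of these regions, at a median of 13.5 and 12 bp from the repeat's centre. Other shared regions had 84.2% and 85.9%. In introns of genes on 1 strand, the AC repeat read as GT on the coding strand in 463 of 855 regions (54.2%, 50.7 to 57.5) and the AG repeat read as CT in 369 of 697 (52.9%, 49.2 to 56.7), close to 55.6% and 51.2% in the other shared regions.

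The repeats under wild type only summits had median lengths close to those of the other shared regions, but few reached 70 bp. The AC repeats of wild type only regions ran from 40 to 69 bp with a median of 53 bp, against 55 bp, and 0 of 2084 reached 70 bp. In the other shared regions 286 of 11136 AC repeats (2.57%) did. The AG repeats of wild type only regions ran from 40 to 90 bp with a median of 55 bp, against 56 bp. Of these, 60 of 1877 (3.20%) reached 70 bp against 10.5% in the other shared regions. Seen the other way, wild type only regions were 12% (10.3 to 14.0) of all shared regions on an AC repeat of 40 to 44 bp, 16.2% at 45 to 49 bp, 24% (22.6 to 25.5) at 50 to 54 bp, 16.8% at 55 to 59 bp, 4.43% at 60 to 69 bp, and 0 of 179 at 70 to 79 bp, with an upper limit of 2.04%. On AG repeats the share was 6.07% at 40 to 44 bp, 9% (8.25 to 9.81) at 55 to 59 bp, and 0.825% at 80 bp or more. Over all lengths it was 15.8% on AC repeats, 7.10% on AG repeats, 4.16% on other units and 4.11% where no repeat was found. Among the latter, a stretch of 20 to 39 bp gave 7.85% and a shorter one 2.28%.

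**Figure D1:**
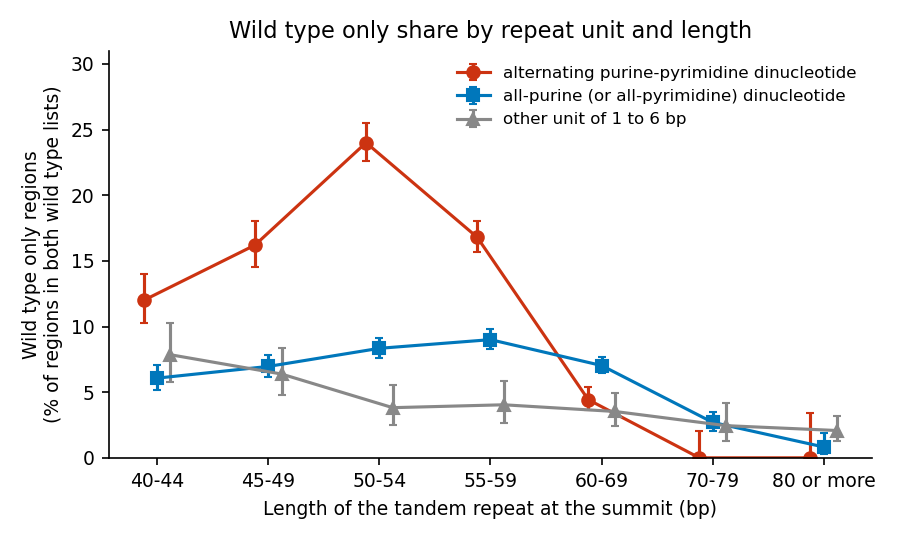
Share of the regions in both wild type lists that no other list overlapped (percent, y axis) by the length of the tandem repeat at the summit (bp, x axis) and by repeat unit, with 95% exact binomial intervals. Red circles are AC repeats, which alternate purine and pyrimidine, and reach 24% at 50 to 54 bp. Blue squares are AG repeats, all purine on 1 strand, at 9% or less, and grey triangles are other units.

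Every AC and AG repeat of the autosomes was also laid over each full list. These are the lists that defined the regions, so the values describe the lists and give no separate support. Of 6562 AC repeats of 55 to 59 bp, 77.8% and 92.1% lay under a peak of wild type replicates 1 and 2. The premalignant replicates reached 40.6% and 29.7% and the malignant ones 38.3% and 43.3%. Both wild type values were above the other 4. At 50 to 54 bp the values were 38.2% and 56.5% for wild type, 18% and 25.2% for premalignant and 20.8% and 36.3% for malignant replicates, with both wild type values above the others, the lower by little. At 60 to 69 bp the values were 95.9% and 99.2% for wild type, 68.9% and 36.1% for premalignant and 62.2% and 51.9% for malignant replicates, and wild type only regions held 99 (3.86%) of these 2564 repeats. At 40 to 44 bp the order was lost. There wild type had 13.8% and 19.3%, below 1 premalignant and 1 malignant library, since these stages had 7.41% and 20.7%, and 11.1% and 29.9%. At 80 bp or more all 118 repeats lay under a peak of each wild type list, against 100% and 76.3% for premalignant and 99.2% and 83.1% for malignant replicates. AG repeats of 55 to 59 bp, 9415 in all, lay under a peak in 71.3% and 86.2% of cases for wild type, 44.1% and 49.9% for premalignant and 43.5% and 60.1% for malignant replicates. At 70 to 79 bp the gap was wider, with 93% and 99.5% for wild type and at most 67.8% for the others. No test was run on these values, because the rule used the same lists. Wild type only regions held 723 (11.0%) of the AC repeats of 55 to 59 bp and 488 (5.18%) of the AG repeats of that length.

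**Figure D2:**
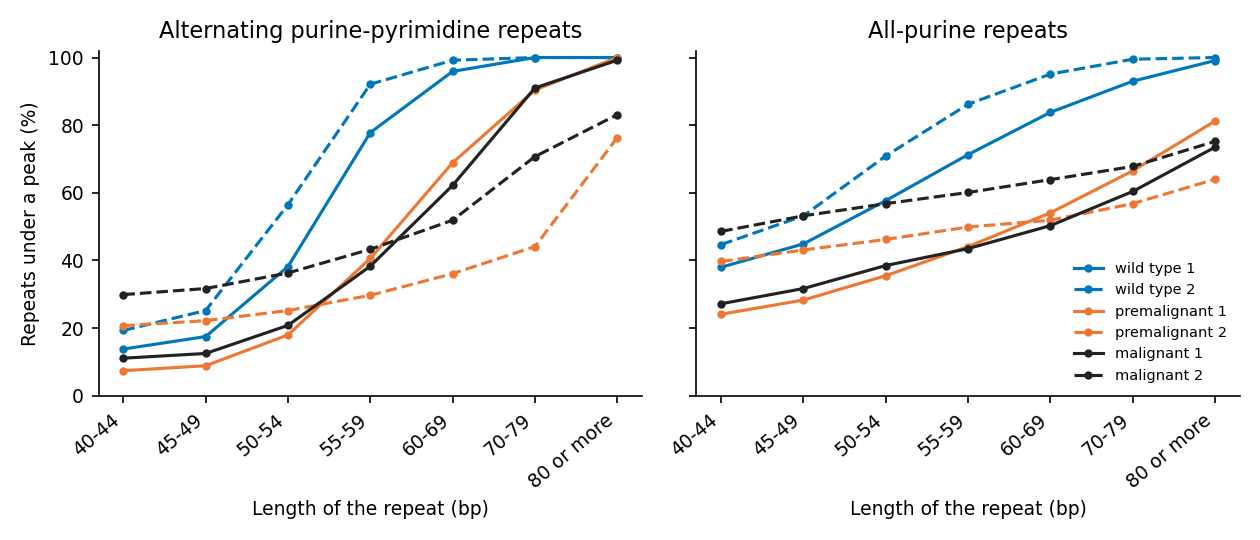
Percent of the mm9 repeats on chromosomes 1 to 19 that lie under a peak of each full list (y axis) by repeat length in bp (x axis), for AC repeats (left, alternating purine-pyrimidine) and AG repeats (right, all purine on 1 strand). Each line is 1 of the 6 libraries, coloured by stage, with replicate 1 solid and replicate 2 dashed. At 55 to 59 bp both wild type lines lie above the other 4 in both panels.

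These shares stand against lists of unequal length and width. Peaks covered 6.90% and 10.2% of the sequenced autosomal bases for wild type, 4.82% and 19.3% for premalignant and 10.8% and 19.5% for malignant replicates 1 and 2. The narrowest peak was 240 and 250 bp wide for wild type, 260 and 680 bp for premalignant and 800 and 670 bp for malignant replicates. Premalignant replicate 1 is thus the only one of the 4 other lists with narrowest peaks like those of wild type. With each list shortened to its best 78113 peaks, AC repeats of 55 to 59 bp lay under a peak in 60.6% and 65.1% of cases for wild type, 40.6% and 2.67% for premalignant and 7.15% and 4.53% for malignant replicates, so both wild type values were still the highest and premalignant replicate 1 came next. Where premalignant replicate 1 alone excluded, 31718 regions remained. Of these 64.3% lay on a tandem repeat, 23.2% on AC and 33.8% on AG, so AC was then no longer the more frequent unit. With all lists at 78113 peaks the shares were 79.9%, 26.3% and 47.4% in 10660 regions. AG was also the more frequent unit without premalignant replicate 2 (38% against 35.7% AC), without malignant replicate 2 (37.9% against 35.4%) and when 50% of a peak had to be covered (39.7% against 35.1%). The part of list length and peak width in the choice of regions was not tested.

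By the score of the peak caller, which ranks peaks within 1 list, the wild type only regions were modest. Their best rank was 4297 of 116180 peaks in replicate 1 and 4937 of 184609 in replicate 2. The median rank percentile, where a low value is a high score, was 60.2 in replicate 1 and 40.5 in replicate 2, against 36.0 and 22.8 in the other shared regions. Among the best 10% of each list were 26 regions (0.492%) in replicate 1 and 109 (2.06%) in replicate 2, and 63.6% and 37.5% lay in the lower 50% of those lists. Wild type only peaks were 4 of 5493 shared peaks (0.0728%) in the best 5% of replicate 1, 1.99% between the 10th and 20th percentile, and 9.59% between the 60th and 80th. The rule did not use ranks, and no test was run on them.

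**Figure D3:**
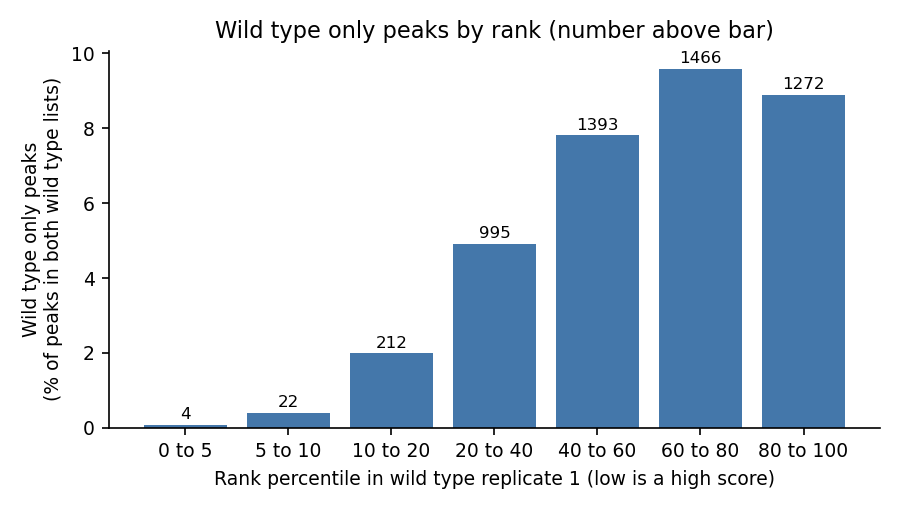
Wild type only peaks as a percent of the peaks of wild type replicate 1 that replicate 2 also holds (y axis), by rank percentile in replicate 1 (x axis, low is a high score), with the number of wild type only peaks above each bar. The share is 0.0728% in the best bin and 9.59% between percentiles 60 and 80.

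The excess of repeats was seen within the bins of rank beyond the best 5% of replicate 1, and that of AC repeats beyond the best 10%. Between percentiles 20 and 40 of replicate 1, 84.9% of 992 wild type only regions lay on a tandem repeat and 34.6% on AC, against 65.3% and 19.7% of 16066 other regions. Between percentiles 60 and 80 it was 78.7% and 43.5% against 50.5% and 19.5%, and in the lowest bin 70.5% and 41.0% against 43.3% and 18.1%. The best 5% held 4 wild type only regions, of which 2 lay on a repeat, against 76.6% of the others. On AC repeats lay 0% of these regions against 3.84% of the others. Between percentiles 5 and 10, with 22 wild type only regions, 95.5% lay on a repeat against 71.7%, but 4.55% on AC against 7.75%.

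The regions were narrow, and the replicates placed them at the same spot. Their median width was 1439 bp against 2003 bp, and 2107 (39.9%) had the narrowest width of the list, 240 bp, against 10.2% of the other shared regions. Summits of both replicates lay a median of 7 bp apart and within 50 bp in 89.1% of regions, against 15 bp and 72.6%. Ranks in the 2 replicates were only weakly related across regions, with Spearman's rho of 0.232 over 5284 regions against 0.662 over the other 66493. The 2 values cover unlike ranges of rank, so they do not compare the agreement of replicates. The best 10% of replicate 1 held 0.492% of the wild type only regions against 16.0% of the others. Regions of 1 library share its depth and background and are not replicates. A single peak of replicate 1 made up 5209 regions (98.6%).

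The window of 100 bp to either side of the summit was moderate in GC, and its median 24-mer was mostly of 1 copy. The median GC content of that window was 45.3%, against 47.3% in the other shared regions and 41.8% on the grid. Wild type only regions were 9.93% of the shared regions with a GC content of 40 to 45% and 2.48% of those at 60% or more. The median 24-mer in the window occurred once in mm9 for 4086 regions (77.3%, 76.2 to 78.5), against 42.1% (41.7 to 42.5) of the other shared regions and 81.7% of grid positions. By unit, this held for 85.3% of AC and 74.6% of AG regions, and for 73.5% of the 1111 regions with no repeat. These windows were less unique than the grid. A median of 64.6% of their 24-mers occurred once, against 44.4% in the other shared regions and 99.4% on the grid.

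Placed on the GENCODE M1 annotation, 2981 summits (56.4%, 55.1 to 57.8) were intergenic and 2121 (40.1%, 38.8 to 41.5) were in introns, with 120 (2.27%) in other exon parts and 62 (1.17%) in coding exons. The share of all sequenced autosomal bases in these classes, which is the mean that random positions would have, was 58.2%, 38.4%, 2.01% and 1.44%. In the intergenic and intron classes the wild type only regions lay nearer to that background than the other shared regions, of which 62.8% (62.4 to 63.2) were intergenic and 32.8% (32.4 to 33.2) intronic. A gene start lay within 1 kb of 326 summits (6.17%, 5.54 to 6.85), between the 4.17% of bases and the 9.90% (9.67 to 10.1) of the other shared regions. This value rests on malignant replicate 1, without which 12.5% of 7961 regions were at gene starts. The few regions at gene starts were mainly those with no repeat, 17.6% of which had a start within 1 kb, against 2.83% of AC and 3.30% of AG regions.

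**Figure D4:**
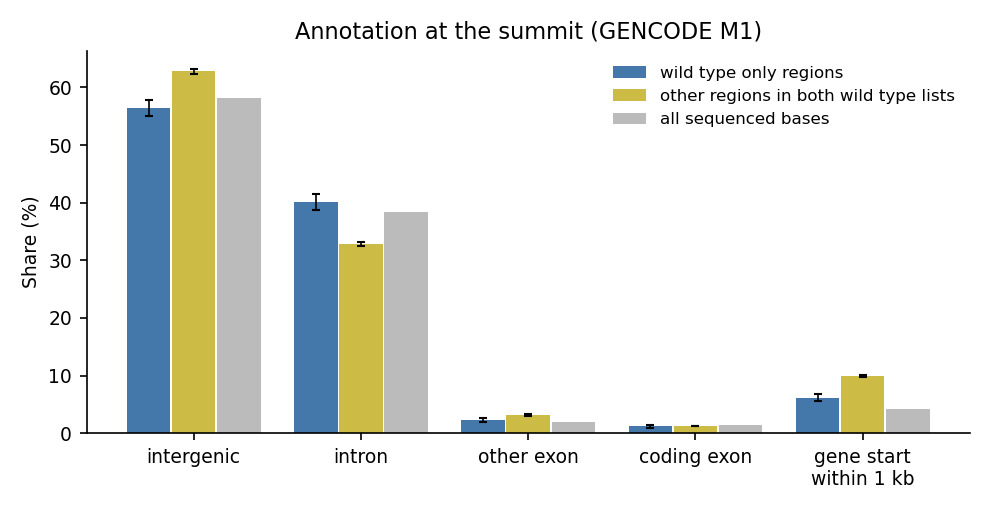
Share (percent, y axis) of summits in each annotation class of GENCODE M1 for wild type only regions, other regions in both wild type lists, and all sequenced autosomal bases, with 95% exact binomial intervals for the regions. A start within 1 kb can occur with any of the other 4 classes, and is at 6.17%, 9.90% and 4.17%.

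The regions were spread over all 19 autosomes, at 2.21 per Mb of sequence (2.15 to 2.27, exact Poisson interval). Chromosome 18 had the highest density, 3.39 per Mb (3.02 to 3.80), followed by chromosome 19 with 2.89 (2.47 to 3.36), and chromosome 3 had the lowest with 1.80 (1.60 to 2.03). The interval lay above the density of all autosomes on 5 chromosomes and below it on 6. Other shared regions ran from 26 to 29.9 per Mb, with 26.4 on chromosome 18 and 26.8 on chromosome 19. On chromosome 18, peaks of malignant replicate 2 covered 14.7% of bases against 19.5% on all autosomes, and 35.3% of the shared wild type peaks there had no overlap in that list against 22.2% on all autosomes. Without malignant replicate 2, chromosome 18 had 1.12 times the density of all autosomes, against 1.54 times with it. On chromosome 19, 48.6% of the shared wild type peaks had no overlap in premalignant replicate 1 and 36.9% none in malignant replicate 1, against 38.8% and 29.7% on all autosomes. The density ratio there was 1.31 with all lists, 1.19 without premalignant replicate 1, 1.25 without malignant replicate 1 and 1.34 without malignant replicate 2. The nearest other wild type only summit was a median of 144312 bp away, and 250 regions (4.73%) had one within 10 kb.

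**Figure D5:**
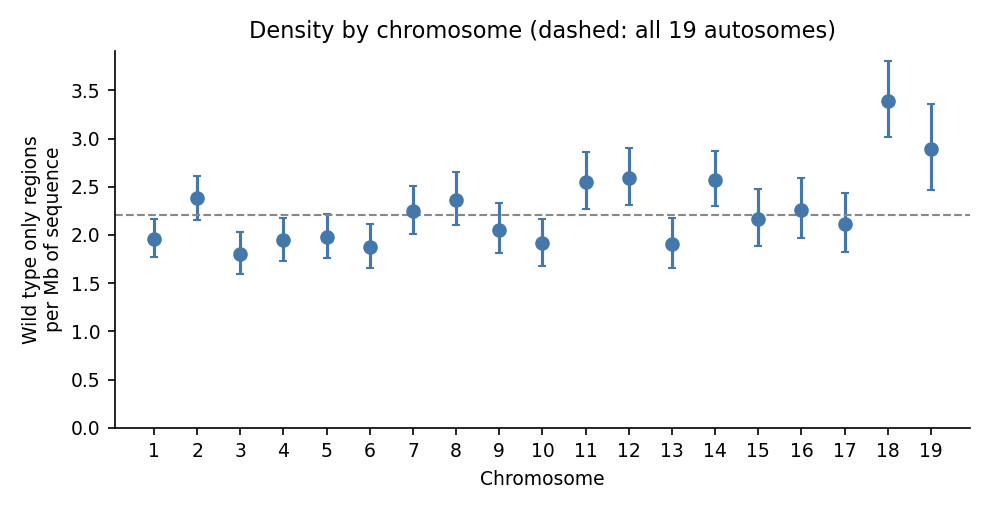
Wild type only regions per Mb of sequence (y axis) on each autosome (x axis) with 95% exact Poisson intervals, and the density over all 19 autosomes as a dashed line. Chromosome 18 is at 3.39 and chromosome 19 at 2.89, against 2.21 for all autosomes.

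The 10 regions of best mean rank over both wild type lists were all single regions of about 2 kb, and 8 of them lay on AG or AC repeats of 51 to 69 bp. The best was chr14:94164586-94166663, with ranks 6472 and 9831, in an intron of Pcdh9, a protocadherin of cell adhesion. The nearest peak of another list was 4083 bp away, in malignant replicate 2. The next, chr1:159577246-159579277, with ranks 11604 and 9016, was intergenic and 110093 bp from the start of Sec16b. The third, chr15:6527898-6529972, with ranks 6710 and 16262, lay at position -919 bp from the start of Fyb, an adaptor protein of blood cells, and 10333 bp from any peak of the other lists. Ranks 4297 and 19422 belonged to chr4:139696972-139699062 in an intron of Igsf21. Others of these regions were in introns of Nfib, Rab38, Astn2 and Chl1. The one in Chl1 had a peak of premalignant replicate 1 only 70 bp away and its replicate summits lay 2008 bp apart, while in the other 9 they were at most 15 bp apart.

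Regions within 1 kb of the start of a protein-coding gene were led by Fyb, followed by Slc1a3, a glutamate transporter, at -555 bp from its start with ranks 23806 and 11774. Next came Hjurp, a chaperone of the centromeric histone CENP-A, at chr1:90172878-90175088 with ranks 25112 and 21687. Its summit lay in exon sequence 20 bp past the gene start, on a GC content of 59.7% with 18 CpG sites and no repeat. Hjurp was also among the regions farthest from other peaks, 39119 bp from premalignant replicate 1, 54145 bp from premalignant replicate 2, 67121 bp from malignant replicate 1 and 43730 bp from malignant replicate 2. Plau, the urokinase protease, had an AG repeat of 73 bp at -112 bp (ranks 16314 and 31829). The others were Rnf11, Nde1, Ldb2 and Mrps16, with ranks in replicate 1 of 24274 to 33177. Repeats of at least 40 bp lay under 4 of the 8.

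The surroundings of the wild type only regions were less covered by peaks of the other lists than the autosomes as a whole. The rule kept only regions that these 4 lists did not overlap, while the other shared regions overlapped at least 1 of them. The distances and coverage therefore describe the lists and give no separate support. The nearest peak was a median of 14612 bp away in premalignant replicate 1, 4096 bp in premalignant replicate 2, 7953 bp in malignant replicate 1 and 3454 bp in malignant replicate 2, and 1431 regions (27.1%) had a peak of at least 1 list within 1000 bp. Within 50 kb on either side, the 4 lists covered 3.89%, 13.4%, 7.66% and 14.9% of bases in that order, against 4.82%, 19.3%, 10.8% and 19.5% of all sequenced bases and 5.57%, 18.3%, 11.0% and 19.4% around the other shared regions. The farthest region, chr6:94166148-94166387 in an intron of Magi1, a scaffold protein of cell junctions, was 54569 bp from any peak of the other lists, on an AC repeat of 48 bp. Its ranks of 91536 and 176667 were low. The third farthest, chr14:24313875-24315773 in an intron of Kcnma1, a potassium channel, was 38179 bp away.

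At the limit of the rule, 14 regions had a peak of another list within 10 bp, and 20 excluded peaks owed their exclusion to an overlap of at most 10 bp. Just inside were chr13:119279249-119281145, which touched another peak with 0 bp between them, and chr9:46931182-46932389 and chr2:146588994-146590999, at 1 and 2 bp. Just outside were chr1:60646520-60646759 with 1 bp of overlap, and chr19:35710035-35712004 and chr3:78315681-78317675 with 2 bp each. The widest regions were chr3:93018116-93024181 in Flg2 at 6066 bp, an intergenic one on chromosome 5 at 4301 bp and one on chromosome 18 at 3910 bp.

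Within 10 kb of a protein-coding gene lay at least 1 region for 2510 of 21418 genes (11.7%). Genes with many regions were long, such as Odz2, a teneurin of 1229 kb with 13 regions, Fhit with 9 in 1612 kb and Cntnap2, a neurexin relative, with 8 in 2241 kb. In Sorcs1, 8 regions lay in 535 kb. Of 33 genes of B cell identity and pre-B cell signalling on the autosomes, 10 (30.3%) had a region within 10 kb. The genes of that list are longer, with a median of 24.1 kb against 15.5 kb over all genes, and per Mb of their span they held 3.96 regions against 2.31, a count of 12 regions. The other shared regions numbered 29.0 per Mb there against 26.5. No test was run on these counts.

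The B cell genes were mostly transcription factors and surface receptors, and the regions lay in their introns in 9 of 12 cases. Ebf1, which with Pax5 sets B cell fate, held chr11:44804176-44806177 on an AG repeat of 63 bp, 374382 bp into the gene, with ranks 20768 and 42923 and no peak of another list within 8221 bp. Pax5 held chr4:44683044-44685047 on an AG repeat of 46 bp (ranks 34685 and 122884). Bach2, a repressor in B cells, had 2 regions on AG repeats with ranks in replicate 1 of 30679 and 112186, and Runx1 had 2 with 72892 and 108860, on AC repeats of 50 and 49 bp in that order. Foxo1, Lef1 and Ptprc, which encodes the B220 antigen used in the sort, had 1 each in introns, on AG repeats of 40 to 60 bp. Regions near Cd22, Ikzf1 and Ikzf3 lay outside the genes. Ikzf3 was the single B cell gene whose region had no repeat.

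Of 29 genes of RNA polymerase I transcription, 5 (17.2%) had a region within 10 kb, against 11.7% of all genes. The other shared regions were also denser in this list, at 34.2 per Mb of its span against 26.5 for all genes. Of its genes 86.2% had such a region, against 69.8% of all genes. Wild type only regions numbered 4.07 per Mb of its span, against 3.96 for the B cell list and 2.31 for all genes. No test was run on these counts. Of the wild type only regions, 1 lay on Ubtf itself, at chr11:102169473-102171472 in exon sequence with no annotated coding part. It was 10636 bp from the gene start, with ranks 102509 and 57660 and a peak of another list 155 bp away. The others were at Npm1 and Polr2f, with summits at 417 and -17 bp from the start, at Taf1c, 10 bp from another peak, and in an intron of Polr1d. Their ranks were low, 100224 and 109238 for Npm1, 89378 and 182605 for Polr2f, and 110957 and 99465 for Taf1c. Polr1d had ranks 58674 and 67600. A peak of another list lay 1415 bp from the Npm1 region and 632 bp from the Polr2f region. The regions at 4 of these 5 genes had no repeat and a GC content of 63.7 to 71.1%, and Polr1d had an AG repeat of 49 bp. In the MYC network and p53 pathway it was 4 of 35 genes (11.4%), namely Bcl2, Cdkn1b, Mlxip and, with 2 regions in coding exons of a neighbouring gene, E2f1. Of 28 genes that mark other blood and niche cells 1 had a region (3.57%), Cebpe, a factor of granulocyte development. These genes are shorter, with a median of 10.8 kb against 15.5 kb over all genes. Per Mb of their span they held 0.955 wild type only regions against 2.31, a value that rests on 1 region. The other shared regions numbered 35.3 per Mb there against 26.5, and 60.7% of the genes had one against 69.8%. A peak near a gene says nothing here of its expression.

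The same rule mirrored onto the other stages gave 444 regions in both premalignant lists only, from 444 of 54550 shared peaks (0.814%), and 3412 regions in both malignant lists only, from 3833 of 218136 shared peaks (1.76%). These counts move with the lists that exclude. Of the shared wild type peaks 38.8% had no overlap in premalignant replicate 1, 29.6% in premalignant replicate 2, 29.7% in malignant replicate 1 and 22.2% in malignant replicate 2, and 36178 (40.5%) were in all 4 lists. Without malignant replicate 1 the wild type only regions numbered 7961, and without malignant replicate 2 they numbered 9309.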

How the data were processed

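UBTF-bound and input DNA of pre-B cells from the 3 stages was sequenced as paired ends. The authors mapped reads to mm9 joined to 1 copy of the rDNA repeat with bowtie2 and removed duplicates with Picard 1.110. They called peaks for each library with SPP, so replicates were not pooled. CASAVA 1.8.2 is named in the submitters' processing notes. The deposited lists give each peak a start, an end, a summit and a score of the peak caller in its own units, used here only for ranks within a list. The deposited FDR, a q-value on a linear scale, was used only as an alternative filter. Lists hold no read counts, so the depth of each library is unknown and the length of a list may move with it.

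Line ends, quotation marks and chromosome names were made alike, and 1 start below 0 was set to the chromosome's first base. Coordinates are 1-based in mm9. Sequence and genes came from NCBIM37, the same assembly, and GENCODE M1. Classes were taken at the summit of wild type replicate 1 in the order coding exon, other exon, intron, intergenic. Tandem repeats were the longest perfect run of a unit of 1 to 6 bp within 100 bp of the summit. The background was the share of sequenced bases in each class, a grid every 50 kb and the other regions in both wild type lists. Random positions were not drawn. Intervals are 95% exact and cover counting error only. No test was run, because the rule used all 6 lists. Functions were tested on simulated data. Python 3.11.15, numpy 2.4.6, pandas 2.3.3, scipy 1.17.1, numba 0.67.0 and matplotlib 3.10.9 were used.

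The members, gene lists and rules were chosen with earlier results of these data known. Regions were named by a rule that took the 10 of best mean rank, the 8 best at protein-coding gene starts, the 3 widest, the 3 farthest from other peaks, 3 on each side of the limit, and those near B cell genes. Other genes of the lists and those with most regions were named after their values were seen.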

Additional observations from a re-analysis of the deposited data

How the results depend on the processing

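Of 95 values recomputed under other settings, 57 stayed within 1.5 times the main count, within the main share's 95% interval or within the SD between replicates, and 38 moved further. No paired analysis was possible because the results come from no test. The number of regions, 5284, was 9590 when at least 50% of a peak had to be covered, 8633 with summits within 200 bp, 10660 with lists of equal length and 31718 with premalignant replicate 1 alone as the excluding list. In those 4 settings the gene start share was 7.62%, 10.1%, 5.56% and 9.96%, the median GC content 45.8%, 45.8%, 46.3% and 46.3%, and the repeat share 78.8%, 71.3%, 79.9% and 64.3%. The median rank percentile was 38.2 with lists of equal length. The intergenic share was 58.2% with summits within 200 bp, 54.6% with no other peak within 1000 bp, 58.3% at an FDR of at most 0.001, 61.4% with lists of equal length and 60.8% with premalignant replicate 1 alone. A gene start lay within 5 kb of 17.4%, and 92.1% had a repeat of at least 20 bp.

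Leaving out 1 library at a time gave 7403 to 19803 regions, the highest without wild type replicate 1. The intergenic share ran from 50.5% to 58.3%, the gene start share from 5.56% to 12.5%, the median GC content from 44.8% to 46.8%, and the repeat share from 54.6% to 81.1%, again lowest without wild type replicate 1. The shares of AC and AG repeats and the densities on chromosomes 18 and 19 were added after the data had been seen, and 33 of their 60 values under other settings stayed within their intervals. The AC share ran from 30.5% to 39.9% and the AG share from 19.1% to 38.0% without 1 library. Unknown depth limits all of these, since a region absent from a list may lie below its calling threshold.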

Other observations

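The sex chromosomes were outside the rule. Applied to them, it gave 169 regions on chromosome X, from 172 of 5272 peaks shared by both wild type lists (3.26%), and 4 regions on chromosome Y, from 4 of 136 shared peaks (2.94%), against 6.01% of shared peaks on the autosomes. The study's methods give wild type and premalignant mice as female and malignant mice as both sexes. In the malignant group sex and stage therefore cannot be told apart on these chromosomes. The chromosome Y peaks of the wild type lists are calls on a chromosome that female mice lack.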
